A study of Homo sapiens with 2 samples.

Results

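The SR splicing factors SRSF1 to SRSF7 and SRSF9 to SRSF11, listed by gene symbol, were described in the RNA of ARP1-SRD5A1-KD cells. These 10 genes were found by their symbols among 57485 listed genes. ARP1 is an established human multiple myeloma (MM) line, and ARP1-SRD5A1-KD cells carry a lentiviral shRNA against SRD5A1 that doxycycline (Dox) switches on. One library was made from untreated cells and 1 from cells treated with Dox. With 1 library a condition, differences lack a replicate check and no p-value is given. Both libraries carry the hairpin construct, the dose and time of Dox for these libraries are not given in the sources used here, and the genotype label of the library with Dox names SRD5A2 where its title names SRD5A1. No library of Dox-treated cells without the hairpin was analysed here, so an effect of Dox and one of the hairpin cannot be told apart.

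SRD5A1, the targeted gene, went from 13.04 to 25.88 FPKM (fragments per kilobase, scaled to the depth of the library), higher where the label says with Dox. These values show no lower SRD5A1 RNA in the library labelled with Dox, and the reason was not tested. Each direction given here is thus one between the library labelled with Dox and the library labelled without Dox. The expected counts summed to 45918570 without Dox and 48728927 with Dox. The plasma cell genes SDC1, TNFRSF17, IRF4, PRDM1 and XBP1 lay between 97.72 FPKM for TNFRSF17 without Dox and 834.39 FPKM for XBP1 without Dox. Of 13 markers of T cells, myeloid, epithelial, fibroblast and erythroid cells, 10 stayed below 1 FPKM in both libraries, and the others, EPCAM, HBB and HBA1, reached at most 3.04 FPKM. In such bulk RNA, fewer cells of a type and less RNA per cell cannot be told apart.

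SR proteins are RNA-binding proteins with 1 or a pair of RNA recognition motifs and a tail rich in arginine and serine. They bind exonic enhancers, help the spliceosome to choose splice sites, and are switched by phosphorylation of the tail. Many SR genes limit their own output through a cassette exon with an early stop codon, often called a poison exon, since mRNA that includes it is degraded by nonsense-mediated decay. A rise in protein then lowers the productive mRNA.

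Such exons bear on the length of a gene's transcripts, which the tables report. In GENCODE release 29 on GRCh38, 5 of the 10 genes had an internal exon that carries the stop codon of a transcript annotated for nonsense-mediated decay, is skipped by a protein-coding transcript and overlaps no exon of one. There were 9 such exon entries in SRSF3, SRSF4, SRSF6, SRSF7 and SRSF9. Shown here, from the transcript sequences of that release, is the start of one exon from each of 4 genes up to and including its in-frame stop codon, which stands in capitals. The SRSF3 exon of 456 bases is shown from chr6:36599821-36599854 on the forward strand, the SRSF4 exon of 195 bases at chr1:29160018-29160058 on the reverse strand, the SRSF6 exon of 268 bases at chr20:43459153-43459304 on the forward strand and the SRSF7 exon of 449 bases at chr2:38749319-38749346 on the reverse strand.
SRSF3: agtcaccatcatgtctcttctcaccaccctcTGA
SRSF4: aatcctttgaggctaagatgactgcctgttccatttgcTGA
SRSF6: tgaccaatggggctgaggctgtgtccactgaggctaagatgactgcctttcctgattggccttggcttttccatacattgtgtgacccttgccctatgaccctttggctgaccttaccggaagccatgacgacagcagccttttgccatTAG
SRSF7: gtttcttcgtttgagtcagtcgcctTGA

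The stretches of SRSF4 and SRSF6 shared the 20-base run tgaggctaagatgactgcct, from base 8 and base 29, respectively. The longest run shared by any other pair of these 4 stretches was 6 bases. All 107 transcripts that the tables list for the 10 genes were found in GENCODE release 29.

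None of the 10 SR genes differed by more than 2-fold between the libraries, while 23.4% of the 14859 tested genes did (2521 higher and 953 lower with Dox). SRSF2 had the largest difference, being lower with Dox, followed by SRSF1, which was lower, and SRSF10, which was higher. The median log2 fold change of the SR genes was -0.06, beside 0.15 for all tested genes. A log2 fold change here is that of FPKM plus 0.1 with Dox over FPKM plus 0.1 without Dox, and a gene was tested if it had at least 1 FPKM in at least 1 library. All 10 SR genes were highly expressed, at 42.72 FPKM or more, and among the 3435 genes with at least 40 FPKM in 1 library, a limit chosen after the values were seen, 15.4% were past 2-fold and the median was -0.08. With edgeR's TMM factors, which shift all genes by -0.21, SRSF2 did pass 2-fold, as did 23.3% of the tested genes.

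In the library without Dox the order of FPKM was SRSF3, SRSF1, SRSF5, SRSF2, SRSF7, SRSF11, SRSF9, SRSF10, SRSF6 and SRSF4. The highest was 9.97 times the lowest. With Dox the ratio was 9.28, SRSF3 and SRSF4 kept the ends of the order, SRSF5 and SRSF1 exchanged places, and SRSF10 moved from place 8 to place 6. Between neighbours without Dox, SRSF5 and SRSF2 had overlapping 95% counting intervals (321 to 333 and 314 to 324 FPKM), as did SRSF11 and SRSF9.

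**Figure D1:**
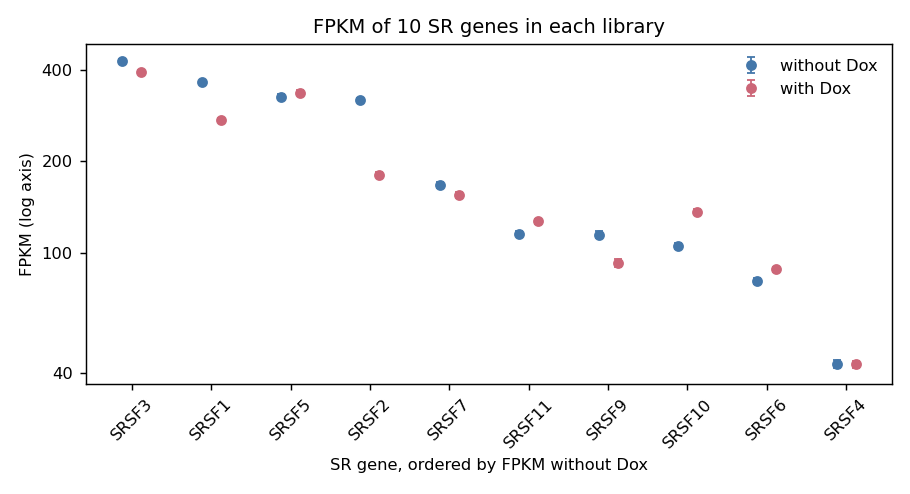
FPKM (log axis) of each SR gene in the library without Dox (blue) and the library with Dox (red), 1 library each, with exact Poisson 95% counting intervals that are mostly smaller than the points. SRSF2 shows the widest gap, from 318.87 to 181.11 FPKM, and SRSF4 none that can be seen.

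Among the SR proteins with a single RNA recognition motif, SRSF2 (SC35, a marker protein of nuclear speckles; ENSG00000161547.16, chr17:76734115-76737374) went from 318.87 FPKM without Dox to 181.11 FPKM with Dox. The log2 ratio was thus -0.82, with a 95% counting interval of -0.85 to -0.78, at percentile 9.88 of the tested genes. SRSF2 was the only SR gene more than 1.5-fold lower, a threshold chosen after the values were seen, and 15.4% of all tested genes and 19.9% of those with at least 40 FPKM were that much lower. Part of the difference in FPKM came from the length term. The expected counts went from 17310 to 11491, a log2 ratio over the library totals of -0.68, and the longer mean transcript with Dox accounted for the other -0.14. Exons of SRSF2 overlap those of MFSD11 on the opposite strand over 1106 bases, and whether the counting used strand is not given in the sources used here. MFSD11 had 618 and 1472 counts, respectively, fewer than SRSF2 in both, and the part of the overlap in the SRSF2 values was not tested.

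SRSF3, the smallest SR protein (ENSG00000112081.16, chr6:36594353-36605600), was the most abundant SR mRNA in both libraries, at 428.32 and 396.26 FPKM. SRSF7, which carries a zinc knuckle beside its recognition motif (chr2:38743599-38751494), had 167.37 and 155.06 FPKM. Their log2 fold changes were both -0.11. Without the length term they were -0.04 for SRSF3 and 0.01 for SRSF7, so the lower FPKM of both went with a longer mean transcript.

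SRSF10 (SRp38, a splicing repressor when dephosphorylated; ENSG00000188529.14, chr1:23964804-23980927) went from 105.28 to 136.64 FPKM, and its counts from 8585 to 11443. Its log2 fold change of 0.38 (0.34 to 0.42) was the highest of the SR genes and the only one above the median of all tested genes. SRSF11, an atypical member of the family (chr1:70205682-70253052), had 115.53 and 127.05 FPKM, a log2 fold change of 0.14. The ratio of SRSF2 to SRSF10 FPKM went from 3.03 to 1.33. A factor common to all genes of a library does not change this ratio, whereas leaving out the length term does. SRSF2 and SRSF10 had the lowest and the highest log2 fold change of the SR genes.

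Among the SR proteins with a pair of recognition motifs, SRSF1 (SF2/ASF, the founding member of the family; ENSG00000136450.12, chr17:58003360-58007346) went from 364.96 to 274.4 FPKM. It had the most counts of the SR genes, 31518 without Dox and 25281 with Dox. Its log2 fold change was -0.41 (-0.44 to -0.39), and -0.40 without the length term. Exons of SRSF1 overlap those of the protein-coding gene AC015813.2 on the same strand over 1890 bases. The part of that overlap in the SRSF1 values was not tested. SRSF9 (SRp30c, which has a short RS tail; chr12:120461668-120469793) was also lower, at 114.52 and 92.49 FPKM (log2 fold change -0.31). Its exons overlap those of GATC on the opposite strand over 1729 bases, and GATC was listed with 2606 and 3156 counts beside the 5022 and 4275 of SRSF9. The part of the overlap in these values was not tested.

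The related proteins SRSF4, SRSF5 and SRSF6 differed little, with log2 fold changes of at most 0.13 in size. SRSF5 (SRp40; chr14:69726900-69772005) had 327.08 and 337.35 FPKM, a log2 fold change of 0.04. SRSF6 (SRp55; chr20:43457928-43464247) had 80.64 and 88.11 FPKM, a log2 fold change of 0.13. SRSF4 (SRp75, with the longest RS tail; chr1:29147743-29181987) had 42.96 and 42.72 FPKM. Its log2 fold change of -0.01 (-0.07 to 0.05) was the only one of the 10 whose counting interval held 0. That value depends on a short fragment with very few counts, described below. Counting intervals cover counting error only and say nothing of the spread between cultures or of the choice of scaling. The interval of SRSF5 in FPKM, 0.008 to 0.081, excluded 0, whereas its value with the TMM factors was -0.16. The share of all genes whose interval excluded 0 was not counted.

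**Figure D2:**
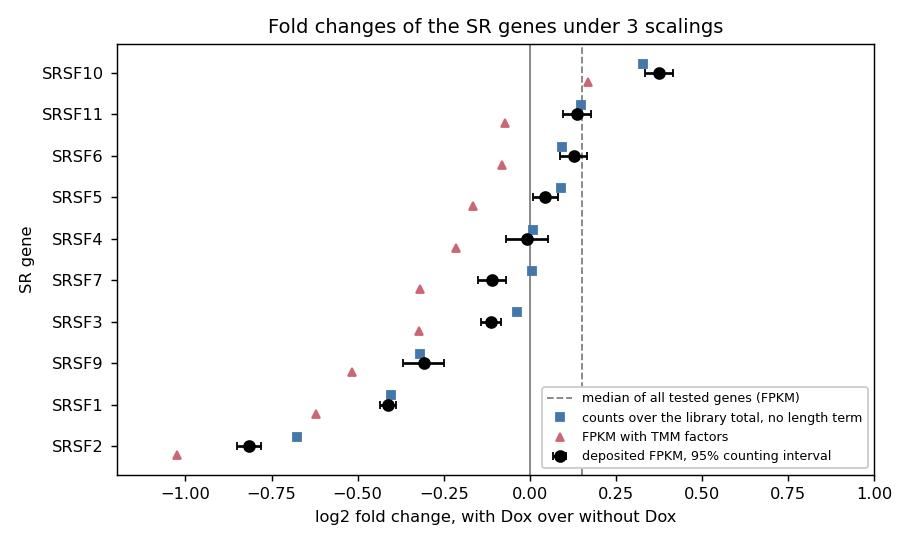
Log2 fold change of each SR gene from the deposited FPKM (black, with 95% counting interval), from counts over the library total with no length term (blue squares) and from FPKM with TMM factors (red triangles). The dashed line is the median of all tested genes, 0.15, and SRSF10 is the only SR gene to its right in FPKM and the only one above 0 with the TMM factors.

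The sign of the small differences depended on the scaling. SRSF1, SRSF2, SRSF3 and SRSF9 were lower and SRSF10 was higher with Dox with the deposited FPKM and under each of 4 other scalings (TPM, counts over the library total, TMM factors and DESeq2 size factors), whereas SRSF4, SRSF5, SRSF6, SRSF7 and SRSF11 changed sign under at least 1 of them. SRSF3 was near 0 under some scalings, at -0.02 with TPM and -0.04 with counts over the library total. With TPM it was close to SRSF7, at -0.01. With the deposited FPKM, 4 SR genes were higher and 6 lower, where 41.1% of the tested genes lay below the -0.01 of SRSF4. With counts over the library total 6 were higher and 4 lower, and with the TMM factors 1 was higher and 9 lower. The TMM factors shift all genes by -0.21, so other genes move below 0 likewise. Before that shift the median was 0.15 for all tested genes and -0.08 for those with at least 40 FPKM. The shares of all genes higher and lower under the other scalings were not counted.

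The composition of the SR pool in FPKM is not changed by a factor common to all genes of a library, but it depends on the length term. The summed FPKM of the 10 genes was 2066 without Dox and 1831 with Dox. SRSF2 went from 15.4% to 9.89% of this sum and SRSF1 from 17.7% to 14.98%. SRSF5 went from 15.8% to 18.4%, SRSF10 from 5.10% to 7.46% and SRSF11 from 5.59% to 6.94%. SRSF3 remained the largest part in FPKM, at 20.7% and 21.6%. By expected counts, which have no length term, SRSF1 was the largest part, with 31518 and 25281 beside 18108 and 18716 for SRSF3. The 4 most abundant mRNAs without Dox, SRSF3, SRSF1, SRSF5 and SRSF2, made up 69.7% of the sum without Dox and 64.9% with Dox.

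The tables also give for each gene a mean transcript length, weighted by the estimated abundance of its transcripts, which moves when the mix of transcripts moves. None of the SR genes had a length that differed by more than 10% between the libraries, while 16.9% of the 12965 genes with at least 1 FPKM in both did. SRSF2 was closest, from 1425.16 to 1547.75 bases (8.60% longer with Dox), and 20.8% of those genes had a difference at least as large. SRSF7 went from 1427.2 to 1530.41 bases (7.23% longer), SRSF3 from 1163.65 to 1214.95 (4.41%) and SRSF5 from 1000.38 to 1028.2 (2.78%). SRSF10 went the other way, from 2018.83 to 1964.28 bases, as did SRSF6 and SRSF9. The length was thus greater with Dox for 7 and smaller for 3 of the 10 genes, with a median of 0.93% longer, beside 0 for all these genes. The shares of all genes that were longer or shorter were not counted. Genes with 1 listed transcript, whose length cannot move, were not left out of the comparison, whereas the SR genes have 2 to 19. The comparison is thus not like for like, and this holds for each share of genes with a length difference given here. The sizes carry no error, since there is 1 library per condition and the tables hold no values per transcript.

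**Figure D3:**
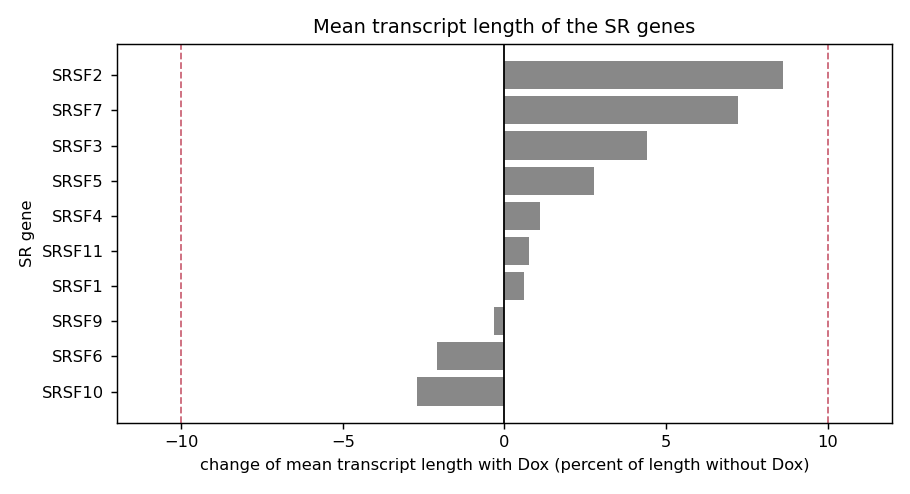
Change of the mean transcript length of each SR gene with Dox, in percent of its length without Dox, with dashed lines at 10% in either direction. SRSF2 (8.60%) and SRSF7 (7.23%) lie nearest to the line and SRSF1, SRSF9 and SRSF11 near 0.

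SRSF6 is the gene for which the mean length fixes the mix, since the tables list just 2 transcripts for it. One is the coding mRNA of 4325 bases, and the other is the decay-annotated transcript of 1680 bases that includes the exon shown above. The lengths put the decay-annotated transcript at 55.8% of SRSF6 molecules without Dox and 58.0% with Dox. In TPM, the molar share of a transcript in the library, the coding mRNA went from 39.1 to 43.4 and the decay-annotated transcript from 49.4 to 60.0, log2 ratios of 0.15 and 0.28. The transcripts also differ at their 3′ ends, and the table cannot tell the use of the exon from the use of a nearer end.

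For the other 9 genes, which have 6 to 19 listed transcripts, the mean length and the effective length only bound the mix. For SRSF1, the coding transcripts made up at least 28.9% without Dox and 29.8% with Dox. For SRSF3 they made up at most 88.9% with Dox, with no such limit without Dox. That contrast rests on the last decimal to which the lengths are rounded, and it shows no difference in the mix. The SRSF3 length less its effective length was 242.95 bases without Dox and 245.67 with Dox, beside 242.97 and 245.7 for a long transcript. The share of decay-annotated transcripts had a lower bound of 0 in both libraries for each of these 9 genes, so their lengths do not show whether a poison exon was used more or less. The SRSF3 transcript with the exon shown is 1095 bases long and those of SRSF7 are 1944 and 2857 bases long, on different sides of the mean lengths of their genes.

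SRSF4 showed how few reads can move this measure. Its length less its effective length was 243.12 bases with Dox, where a long transcript has 245.7 bases, which is possible only if a very short transcript was assigned reads. The shortest one listed, a retained-intron fragment of 206 bases, then made up 3.58% to 5.34% of SRSF4 molecules with Dox and at most 0.065% without Dox. With an effective length of 8.96 bases this corresponds to at most 0.997 of the 4578 counts. Without that fragment, the other SRSF4 transcripts averaged 2525 to 2569 bases with Dox, 4.53% to 6.32% longer than the mean of 2415.92 bases without Dox, in place of 1.09%. Their FPKM with Dox was 40.44 to 41.19, a log2 fold change of -0.09 to -0.06 in place of -0.01.

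The family members outside the list were SRSF8 and SRSF12. SRSF8, a close relative of SRSF2 that arose by retrotransposition, had 19.16 FPKM without Dox and 29.13 FPKM with Dox, a log2 fold change of 0.60 against the -0.82 of SRSF2. As such copies can share reads, the split of counts between SRSF8 and SRSF2 is uncertain. SRSF12 was listed at 0 counts in both libraries, and 3 counts, the limit that a count of 0 allows, equal 0.065 and 0.062 CPM. The processed pseudogene SRSF10P1 had 1 count without Dox and 0 with Dox.

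Genes that act on or beside SR proteins were compared from lists drawn up by hand. Among 12 tested genes for kinases, phosphatases and nuclear import of SR proteins, the median was 0.06. Beside 23.4% of all tested genes, and 15.4% of those with at least 40 FPKM, 1 gene of this list was past 2-fold. That gene was CLK1, a nuclear kinase that phosphorylates SR proteins, at 32.94 FPKM without Dox and 74.42 FPKM with Dox (log2 fold change 1.17). Its relative CLK4 went from 9.66 to 16.65 FPKM and DYRK1A from 15.11 to 28.75 FPKM, whereas SRPK1, the cytoplasmic kinase that primes SR proteins for import, went from 77.81 to 56.29 FPKM. With the TMM factors CLK1 was under 2-fold, at 0.97.

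Among 31 SR-related proteins the median was 0.04 and 1 gene was past 2-fold, beside 23.4% of all tested genes. That gene was U2AF2, the subunit of U2AF that binds the polypyrimidine tract, lower with Dox, from 260.92 to 92.24 FPKM. TRA2A, an SR-like splicing activator, was higher with Dox, from 77.71 to 126.42 FPKM, as were RBM39 (138.28 to 231.74) and the cyclin CCNL2 (43.69 to 73.27). CDK13, a kinase with an RS domain, went from 14.69 to 28.72 FPKM. In this list 5 of 31 genes had a length difference over 10%, a share near the 16.9% of all genes.

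The hnRNP list holds proteins that often act against SR proteins at exons. It had a lower median than the SR genes, -0.49 over 27 genes, and 21 of them were below 0. For comparison, 41.1% of the tested genes lay below the -0.01 of SRSF4, and genes with at least 40 FPKM had a median of -0.08. None of the hnRNP list was past 2-fold in FPKM, beside 23.4% of the tested genes. With the TMM factors 6 of the list were more than 2-fold lower, beside 10.2% of the tested genes. HNRNPA2B1 went from 1007.83 to 523.67 FPKM (log2 fold change -0.94), HNRNPAB from 299.89 to 156.5 and HNRNPDL from 389.89 to 205.43. The spliceosomal snRNP proteins had a median of -0.45 over 30 genes, of which 27 were below 0 and 2 more than 2-fold lower (4 with the TMM factors), a share near the 6.41% of the tested genes (10.2% with the TMM factors). The pair were SF3B3 of the U2 snRNP, from 206.6 to 94.89 FPKM, and the Sm protein SNRPD3, from 236.25 to 111.72 FPKM. Above 0 were 3 of the 30, with SNRPN the highest, from 12.63 to 23.36 FPKM (log2 fold change 0.88). The share of genes more than 1.5-fold lower was 9 of 27 for the hnRNP list and 11 of 30 for the snRNP list, beside 1 of 10 SR genes, 15.4% of the tested genes and 19.9% of those with at least 40 FPKM. The differences between these lists were not tested. Among 15 factors of the exon junction and of nonsense-mediated decay, which degrades transcripts with poison exons, the median was 0.04. Of these, 0 were past 2-fold, beside 23.4% of the tested genes. The largest difference there was that of SMG8, from 10.48 to 6.99 FPKM, followed by UPF3B, from 15.3 to 22.59 FPKM. The medians near 0 of the SR genes, the SR-related proteins, the kinase list and the decay factors changed sign between scalings, whereas those of the hnRNP and snRNP lists were below 0 under each of the 4 other scalings.

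**Figure D4:**
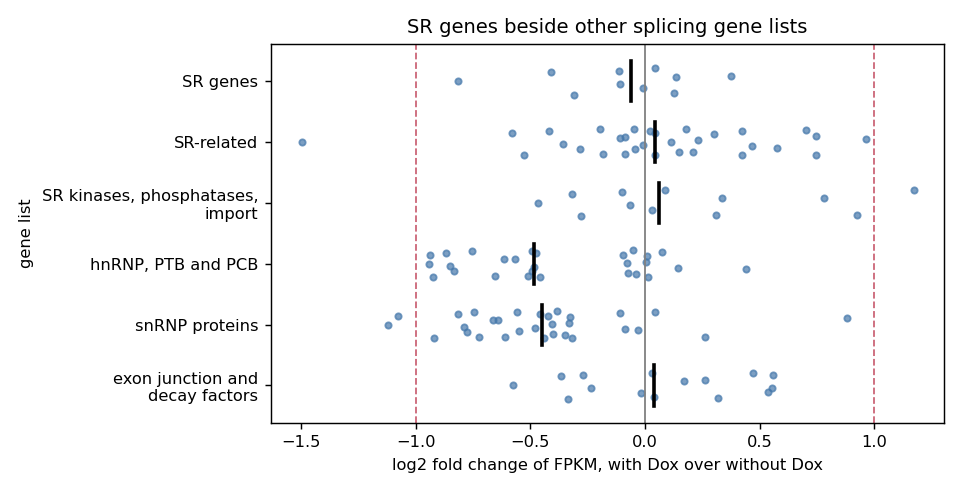
Log2 fold change of FPKM for each tested gene (points) of the SR genes and 5 other splicing gene lists, with the median of each list as a black bar and dashed lines at 2-fold. The SR genes centre at -0.06 and the hnRNP and snRNP lists at -0.49 and -0.45.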

How the data were processed

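Poly(A)-selected RNA of 1 library per condition was sequenced from both ends with 150-base reads. The authors deposited expected counts per gene, not normalized, with reads apportioned between transcripts. The authors deposited TPM values, and the authors deposited FPKM values, both divided by effective length. The deposited tables have the columns that RSEM writes, and they also give mean and effective lengths in bases. The submitters' processing notes list HISAT2 2.1.0, StringTie 1.3.4d, Bowtie 0.12.2 and hg19, with no role. The tables hold no coordinates. Those printed come from GENCODE release 29 (GRCh38), in which 34241 genes with 1 transcript had the length given in the tables.

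Log2 fold changes used FPKM with a pseudocount of 0.1. Expected counts were rounded for exact binomial (Clopper-Pearson) 95% intervals. Bounds on transcript shares came from linear programming on both lengths, with effective lengths taken from genes with 1 transcript. edgeR 4.0.16 (TMM) and DESeq2 1.42.0 (size factors), in R 4.3.3, gave scalings only, over genes with at least 10 counts. No count test was run, since 1 library per condition leaves no spread to estimate. Python 3.11.15, pandas 2.3.3, numpy 2.4.6, scipy 1.17.1 and matplotlib 3.10.9 were used for the rest. The steps were tested on simulated data. The members and lists were chosen with earlier results of these data known. Named genes are the members, SRD5A1, SRSF8, SRSF12, the markers and, of each other list, up to 5 genes that had at least 5 FPKM and the largest fold changes in either direction. SRSF10P1, MFSD11 and GATC were chosen after their values were seen. AC015813.2, whose exons overlap those of SRSF1, was not analysed here.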

Additional observations from a re-analysis of the deposited data

How the results depend on the processing

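The median log2 fold change of the SR genes was 0.0375 with TPM, 0.0082 with counts over the library total, -0.27 with TMM factors and -0.21 with DESeq2 size factors on counts, against -0.06 with the deposited FPKM. The filters on low values keep all 10 genes, and pseudocounts of 0.01 and 1 are small beside their FPKM, so these settings say nothing of stability. The number of SR genes past 2-fold was 1 (SRSF2, at -1.02) with the TMM factors and 0 under the other settings. The number with a length difference was 1 (SRSF2) with the effective length in place of the length, which 20.6% of genes passed, and 2 (SRSF2 and SRSF7) with a threshold of 5%, which 35.3% of genes passed. The alternatives of 40 FPKM and of 1.5-fold were chosen once the data had been seen. No paired analysis was possible because each condition had 1 library. The lowest count of an SR gene was 4275, that of SRSF9 with Dox, so counting error is small at this depth, whereas the spread between cultures is unknown.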
